A study of Mus musculus with 4 samples.

Results

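The genes described here are 8 enzyme genes of heme synthesis, *Alas1*, *Alas2*, *Alad*, *Uros*, *Urod*, *Cpox*, *Ppox* and *Fech*, and *Slc25a37*, which encodes mitoferrin. They were chosen by name as a pathway, and every non-control array spot whose gene name equals one of these symbols was taken. This gave 9 of the 24728 genes with a probe and 19 of 56604 probes. Heme is built from glycine and succinyl-CoA in steps that begin in mitochondria, continue in the cytosol and end in mitochondria, where ferrochelatase, the product of *Fech*, inserts iron into protoporphyrin. The entry step, which limits the rate, is catalysed by 5-aminolevulinate synthase, and its *Alas1* form serves most tissues whereas the X-linked *Alas2* form serves erythroid cells. In mouse embryos of the ages studied here, primitive erythroid cells from the yolk sac enter the circulation and fill with hemoglobin, so they need much heme and iron.

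The study asked how loss of *Dyrk2*, a protein kinase gene, alters gene expression during early organogenesis. RNA of whole C57BL/6 embryos was labelled with Cy3 and hybridized to 4 single-colour Agilent mouse arrays on 1 slide, which were scanned together. The 4 groups were WT at E8.5, *Dyrk2*-/- at E8.5, WT at E10.5 and *Dyrk2*-/- at E10.5 (E, embryonic day), with 1 array each and no further treatment. The *Dyrk2* alleles were small deletions made with the CRISPR/Cas9 nickase system in fertilized eggs, and neither the allele nor the number of embryos behind each array is given in the sources used here. Since each group had 1 array, no genotype difference at a single stage could be set against replicates, and none has a p-value. The number of arrays limits the precision.

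Levels are log2 of the processed intensity of a probe minus the 75th percentile of its array, so a value of 0 is that percentile, and each fold is relative to the other probes of the array. Because a probe's brightness also depends on its sequence, levels are compared between arrays and not between genes. A gene was read from its brightest probe and called higher or lower at 1.5-fold or more (0.585 on the log2 scale). Probes well above background numbered 31370 (WT) and 30226 (*Dyrk2*-/-) at E8.5 and 31818 (WT) and 31943 (*Dyrk2*-/-) at E10.5. All 9 genes were well above background on all 4 arrays by their brightest probe, as were 18 of their 19 probes. Repeated spots of a probe on an array scattered with a median SD between 0.07 and 0.12 (log2), which gives a ratio of 2 arrays a spread of 0.15 at E8.5 and 0.11 at E10.5 from spots alone. The spread between embryos was not measured.

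The targeted gene did not check the labels. At E8.5 the brighter *Dyrk2* probe read 0.06 (WT) and 0.76 (*Dyrk2*-/-), and at E10.5 it read −0.31 (WT) and 0.34 (*Dyrk2*-/-). At E8.5 the other probe read −0.23 (WT) and −0.20 (*Dyrk2*-/-), and at E10.5 it read −0.28 (WT) and −0.0048 (*Dyrk2*-/-). The transcript was thus not lower on either array labelled *Dyrk2*-/-, and small deletions need not lower it, so on these arrays the genotype directions rest on the labels.

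At E8.5, the array labelled *Dyrk2*-/- had far more *Alas2* RNA and more *Slc25a37* RNA than the WT array, while the ubiquitous *Alas1* was nearly level. *Alas2* was 16.7-fold higher (log2 ratio 4.07, or 2.54 under normexp) and *Slc25a37* was 2.16-fold higher. Under the main scaling these were the only genes of the 9 that passed 1.5-fold, and 0 of 9 were lower by that fold, whereas 4.23% of the 15788 genes tested were higher and 5.43% were lower. The median log2 ratio of the 9 genes was 0.18, against −0.03 for all genes tested, and turned to −0.37 under spike-in scaling and −0.081 without scaling. In bulk RNA of whole embryos, more cells of a type and more RNA per cell cannot be told apart.

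The enzymes of the entry step moved apart. *Alas2* read −3.83 on the WT E8.5 array and 0.24 on the *Dyrk2*-/- E8.5 array, which are processed intensities of 27.4 and 385. It was low on the WT E8.5 array only, and 21 of the genes tested (0.133%) had a larger ratio. *Alas1* had processed intensities of 3121 (WT) and 2438 (*Dyrk2*-/-), a log2 ratio, after scaling, of −0.10 that lies within the spread of spots. The single *Alas2* probe lies at chrX:147004993-147005052 and the brightest *Alas1* probe at chr9:106136284-106136343 in the array annotation (mm9).

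The cytosolic enzymes did not pass the fold at E8.5. *Alad*, which joins pairs of aminolevulinate into porphobilinogen, read 3.93 and 4.03 (WT, then *Dyrk2*-/-). *Uros*, which closes the porphyrin ring, read 2.04 and 1.78, a log2 ratio of −0.26. *Urod*, which shortens the side chains of the ring, read 4.74 and 4.75. The ratios of *Alad* and *Urod* were thus within the spread of spots, and that of *Uros* was below 0.

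The mitochondrial enzymes of the last steps were nominally above WT at E8.5 under the main scaling but short of 1.5-fold. *Cpox*, which oxidizes coproporphyrinogen, read 1.78 (WT) and 2.15 (*Dyrk2*-/-), or 1.30-fold. *Ppox*, which makes protoporphyrin, read 0.47 and 1.03 (1.47-fold), and *Fech* read 2.20 and 2.38 (1.13-fold). *Slc25a37*, whose product carries iron into mitochondria of erythroid cells, read 2.30 and 3.41, and 191 genes (1.21%) had a larger ratio. Scaling by spike-in controls lowered the E8.5 ratio of all genes by a median of 0.55, and leaving out scaling lowered it by 0.26, so the small ratios depend on the scaling. Under spike-in scaling *Alas2* was the 1 gene called higher (log2 ratio 3.52) and *Slc25a37* was at 0.56. That scaling also called *Alas1* and *Uros* lower, at −0.65 and −0.80. It turned *Alad*, *Urod*, *Cpox* and *Fech* below 0, as *Alad*, *Urod* and *Fech* also did without scaling.

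**Figure D1:**
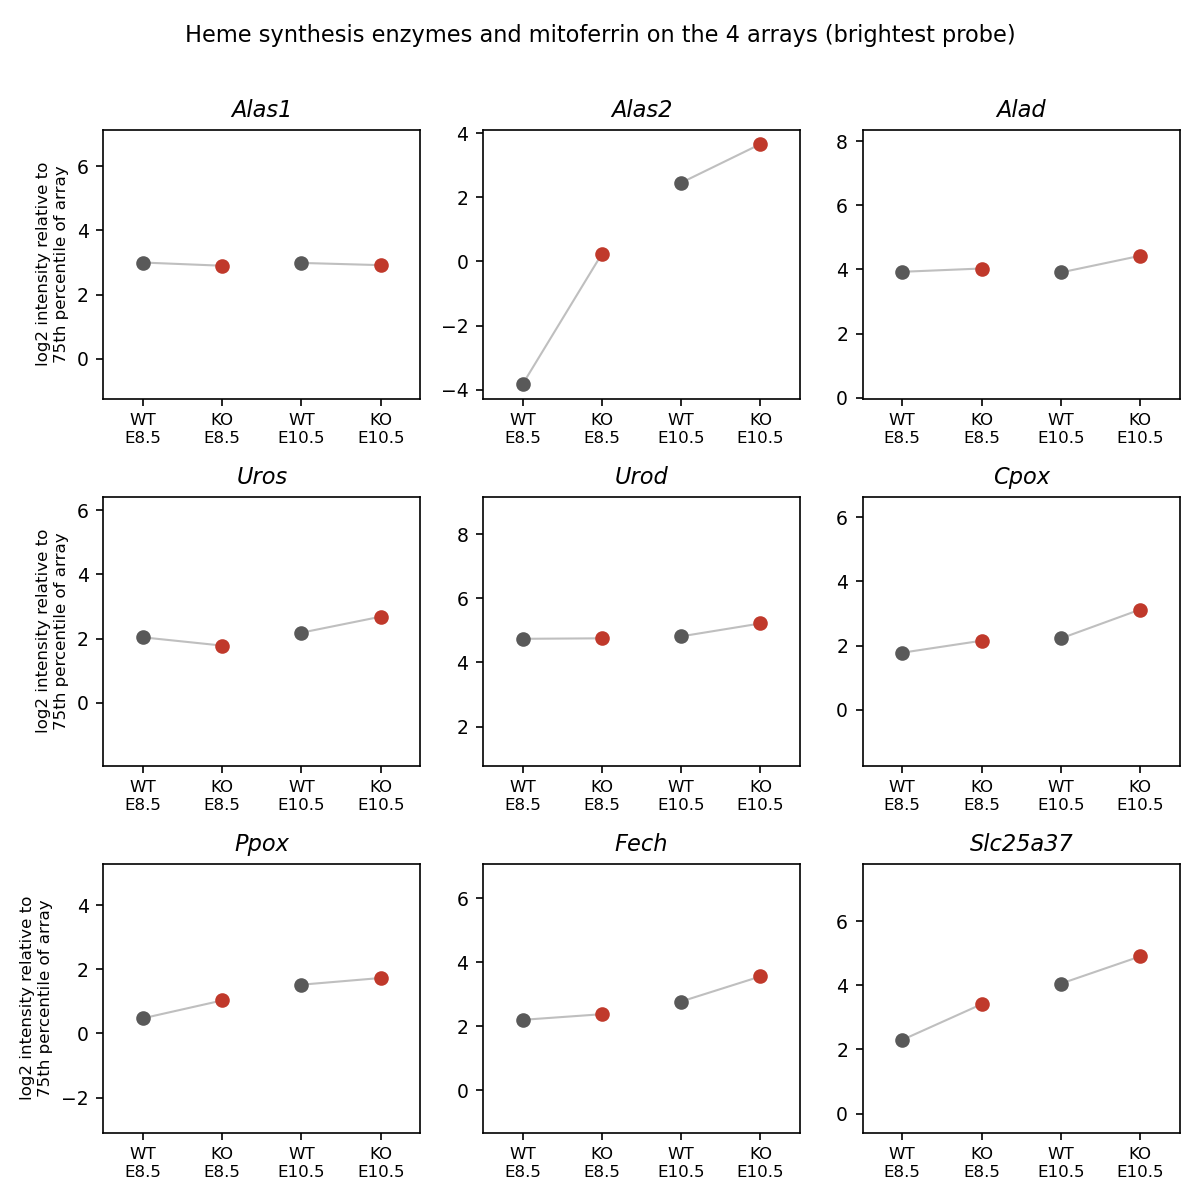
Log2 processed intensity relative to the 75th percentile of the array (vertical axis) of the brightest probe of each of the 9 genes on the 4 arrays (horizontal axis; WT in grey, arrays labelled *Dyrk2*-/-, written KO, in red), with a line joining the arrays of a stage and the same axis span in every panel. *Alas2* spans from −3.83 to 3.66, *Slc25a37* from 2.30 to 4.90, and *Alas1* is nearly level.

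At E10.5, 4 of the 9 genes were higher on the array labelled *Dyrk2*-/-, and they included the last enzyme of the pathway. *Alas2* was 2.31-fold, *Cpox* 1.87-fold, *Slc25a37* 1.80-fold and *Fech* 1.72-fold higher. None of the 9 genes was lower by 1.5-fold, whereas 2.76% of the 16121 genes tested were higher and 4.01% were lower. The median log2 ratio of the 9 genes was 0.52, against −0.02 for all genes tested, and 8 of 9 ratios were above 0. *Alas1* was the exception, at −0.07, and turned to 0.09 under spike-in scaling, which raised all genes by a median of 0.16, whereas leaving out scaling lowered them by 0.13.

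For the entry step at E10.5, *Alas2* read 2.45 (WT) and 3.66 (*Dyrk2*-/-), from intensities of 2426 and 5109. Its log2 ratio was 1.21, exceeded by 134 genes (0.831%), beside 4.07 at E8.5. *Alas1* read 2.99 (WT) and 2.92 (*Dyrk2*-/-), and its levels on all 4 arrays lay within 0.10 of each other.

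The cytosolic enzymes were nominally above WT at E10.5 and all fell short of 1.5-fold. *Alad* read 3.90 and 4.42 (1.43-fold), *Uros* 2.18 and 2.68 (1.41-fold) and *Urod* 4.81 and 5.22 (1.32-fold). These ratios were larger than the spread of spots. *Alad* and *Uros* crossed 1.5-fold under spike-in scaling, with log2 ratios of 0.68 and 0.66.

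Of the mitochondrial enzymes at E10.5, *Cpox* read 2.22 (WT) and 3.12 (*Dyrk2*-/-), and *Fech* read 2.77 and 3.55. *Ppox*, which stands between them in the pathway, read 1.52 and 1.73, a log2 ratio of 0.21. The oxidase steps of the pathway thus gave unequal ratios on the same arrays. *Slc25a37* read 4.05 and 4.90. With a threshold of 2-fold, *Alas2* alone was called at E10.5, and at E8.5 *Alas2* and *Slc25a37* were.

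*Alas2* is X-linked, and the arrays compared at E10.5 differed in sex-linked transcripts. *Xist*, the RNA that coats the inactive X chromosome of female cells, was well above background on the *Dyrk2*-/- E10.5 array alone, by at least 20.4-fold over the WT array of that stage. Of the Y-linked genes, all 4 examined had signal well above background on the remaining 3 arrays, and *Eif2s3y* was at least 43.2-fold, *Kdm5d* 39.0-fold, *Ddx3y* 6.72-fold and *Uty* 6.71-fold lower on the *Dyrk2*-/- E10.5 array. For such a bound, the dim array takes the lowest signal that passed as well above background there, or its own signal if that is higher. The X-linked genes as a group had a median log2 ratio of −0.11 at E8.5 (565 genes) and −0.03 at E10.5 (562 genes), near those of all genes. The part of embryonic sex in the *Alas2* ratio at E10.5 was not tested, and at E8.5 both arrays had the Y-linked transcripts and neither had *Xist* well above background.

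**Figure D2:**
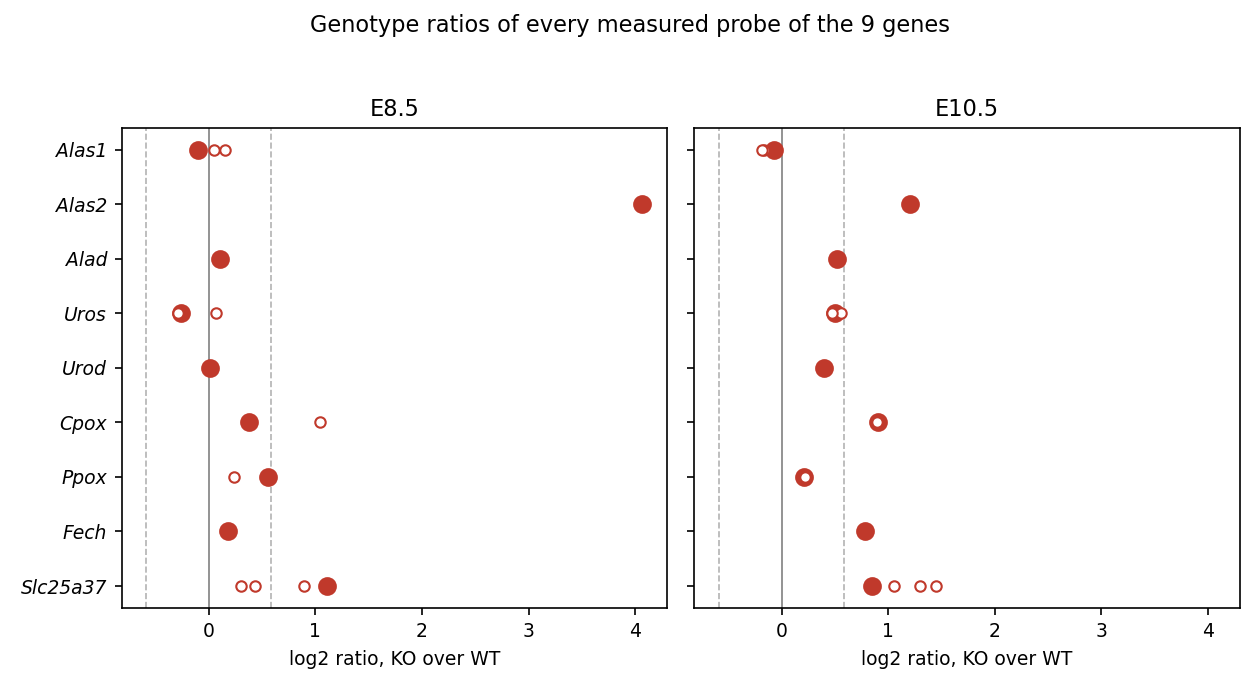
Log2 ratio of the array labelled *Dyrk2*-/- (KO) over WT (horizontal axis) for the probes of the 9 genes at E8.5 and E10.5, filled for the brightest probe and open for others, with dashed lines at 1.5-fold in each direction and 1 dim *Alad* probe left out. *Alas2* stands at 4.07 and 1.21, and all 4 *Slc25a37* probes lie past 1.5-fold at E10.5.

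Genes with several probes mostly gave the same direction. The 3 dimmer probes of *Slc25a37* had E8.5 log2 ratios of 0.89, 0.30 and 0.44 and E10.5 log2 ratios of 1.06, 1.30 and 1.45. All 4 probes thus passed 1.5-fold at E10.5, and at E8.5 the brightest probe and 1 other did. The dimmer *Cpox* probe had a ratio of 1.04 at E8.5, where the brightest one had 0.37, and both had 0.90 at E10.5. The dimmer *Ppox* probe gave 0.23 and 0.22. The dimmer *Uros* probes gave 0.07 and −0.29 at E8.5, so its E8.5 direction differed between probes, and 0.55 and 0.47 at E10.5. At E8.5 the dimmer *Alas1* probes gave 0.05 and 0.15, and at E10.5 they gave −0.17 and −0.19, so no *Alas1* probe came near 1.5-fold. The other *Alad* probe was well above background on the WT E8.5 array alone, and averaging it in moved the *Alad* ratio to −1.05 at E8.5 and −0.20 at E10.5. *Alas2*, *Urod* and *Fech* had 1 probe each.

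Between E8.5 and E10.5, the WT embryos gained mostly *Alas2* and *Slc25a37* RNA. *Alas2* was 77.9-fold higher at E10.5 than at E8.5 on the WT arrays, *Slc25a37* 3.37-fold and *Ppox* 2.07-fold. In the WT, 3 of 9 genes were higher at E10.5 and 0 of 9 lower, beside 19.3% of 16454 genes higher and 18.3% lower. On the arrays labelled *Dyrk2*-/-, 6 of 9 genes were higher at E10.5 (9 of 9 under spike-in scaling) and 0 of 9 lower, beside 17.1% of 16209 genes higher and 14.3% lower. There the log2 ratio of *Alas2* was 3.42, and the stage folds were 2.81 for *Slc25a37*, 2.26 for *Fech*, 1.96 for *Cpox*, 1.87 for *Uros* and 1.62 for *Ppox*. Spike-in scaling raised the stage ratios of all genes by a median of 0.64 on the arrays labelled *Dyrk2*-/-, and leaving out scaling raised them by 0.31 there and by 0.18 in the WT.

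Under the main scaling the order of the 4 arrays was the same for *Alas2*, *Cpox*, *Ppox*, *Fech* and *Slc25a37*, increasing from WT E8.5 over *Dyrk2*-/- E8.5 and WT E10.5 to *Dyrk2*-/- E10.5, while the E8.5 arrays changed places for *Cpox* and *Fech* under spike-in scaling and for *Fech* without scaling. For *Cpox* the middle arrays, at 2.15 and 2.22, did not differ beyond the spread of spots. *Alas1* had stage ratios within that spread under the main scaling, with log2 ratios of −0.01 (WT) and 0.02 (*Dyrk2*-/-), and was called higher at E10.5 on the arrays labelled *Dyrk2*-/- under spike-in scaling. *Alad* read 3.93, 4.03 and 3.90 on 3 arrays and stood apart only on the *Dyrk2*-/- E10.5 array, and *Urod* likewise read 4.74, 4.75 and 4.81 before 5.22. The stage and genotype comparisons share arrays, so their values are set side by side only. The *Alas2* level of the *Dyrk2*-/- E8.5 array lay between the WT levels of E8.5 and E10.5.

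Markers of primitive erythrocytes moved with *Alas2* and *Slc25a37*. At E8.5, 13 of the 15 marker genes could be tested, and on the array labelled *Dyrk2*-/- 13 of 13 were higher. Their log2 ratio had a median of 4.27, or of 3.78 where the 3 genes known only as a bound were set at it, and under normexp, which adds an offset, the median was 2.53. The embryonic globin genes *Hbb-y*, *Hba-x* and *Hbb-bh1* were 63.8-, 33.7- and 13.7-fold higher, and *Slc4a1*, the anion exchanger of the red cell membrane, was 34.1-fold higher. *Gata1*, the erythroid transcription factor gene, was 19.3-fold higher. *Hba-a1* and *Hba-a2*, near-identical copies that probes may not separate, were 30.7- and 31.4-fold higher. *Rhag* and *Epb42* were not well above background on either E8.5 array. The summed level of the list, in multiples of the 75th percentile of the array, was 17.5 on the WT E8.5 and 384 on the *Dyrk2*-/- E8.5 array, with *Hbb-bh1* the brightest probe on both.

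At E10.5 most of the markers were higher again. In all, 11 of 15 marker genes (10 under quantile normalization, without scaling and in the deposited table) were higher on the *Dyrk2*-/- array and 0 of 15 lower, with a median log2 ratio of 1.11. Genes well above WT included *Epb42* (2.74-fold), *Klf1* (2.50-fold), *Rhag* (2.45-fold) and *Gata1* (2.35-fold), which encode membrane and regulatory proteins of red cells. Of the globin genes, *Hba-x* was 1.58-fold higher, a call lost under those same 3 alternatives, whereas *Hbb-y*, *Hba-a2* and *Hba-a1* were nearest to no change, at log2 ratios of 0.03, 0.13 and 0.16, and *Hbb-y* turned below 0 under quantile normalization, and *Hbb-y* and *Hba-a2* without scaling. The summed level was 1375 (WT) and 1597 (*Dyrk2*-/-), with *Hbb-y* the brightest probe on both. The part that the amount of erythroid RNA had in the ratios of *Alas2*, *Slc25a37*, *Cpox* and *Fech* was not tested.

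The markers of other cell types were examined as well. All 10 genes of yolk sac endoderm were below WT at E8.5, 7 of them by 1.5-fold or more (median log2 ratio −0.63), led by *Apoc2* at −1.14, and their summed level was 68.1 (WT) and 41.6 (*Dyrk2*-/-), with *Rbp4* the brightest probe. Under normexp 3 of the 10 passed 1.5-fold at E8.5. At E10.5, 0 of 9 tested were changed (median −0.39), or 4 without scaling. *Trf* belongs to this list and to that of iron uptake. Among macrophage markers 0 of 3 tested were changed at E8.5 (1 was lower under spike-in scaling and without scaling) and 1 of 6 was lower at E10.5, *Adgre1* at −0.64, which was not called under spike-in scaling or normexp, and without scaling 2 were lower. Among megakaryocyte markers 0 of 2 were changed at E8.5 (1 was lower under spike-in scaling and without scaling) and 0 of 5 at E10.5, and among heart and neural tube markers 0 of 5 each at both stages, though spike-in scaling called 2 heart and 4 neural tube markers lower at E8.5, and at E10.5 all alternatives but spike-in scaling called 1 neural tube marker lower. Of 5 endothelial markers, *Emcn* was higher at E8.5 (0.61, not called under spike-in scaling, without scaling or under normexp) and 0 were changed at E10.5. Of the somite markers 0 of 5 were changed at E8.5 (1 was lower under spike-in scaling), and *Tbx6* was lower at E10.5 (−1.66). Of the trophoblast and decidua markers tested at E8.5, *Prl3d1* (at least 6.62-fold) and *Prl8a2* (log2 ratio 1.45) were higher and *Dcn* was lower (−0.65, not called under normexp), and 0 of 2 were changed at E10.5 (1 was higher under spike-in scaling). The part of the yolk sac and of these tissues in the ratios of the heme genes was not tested.

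**Figure D3:**
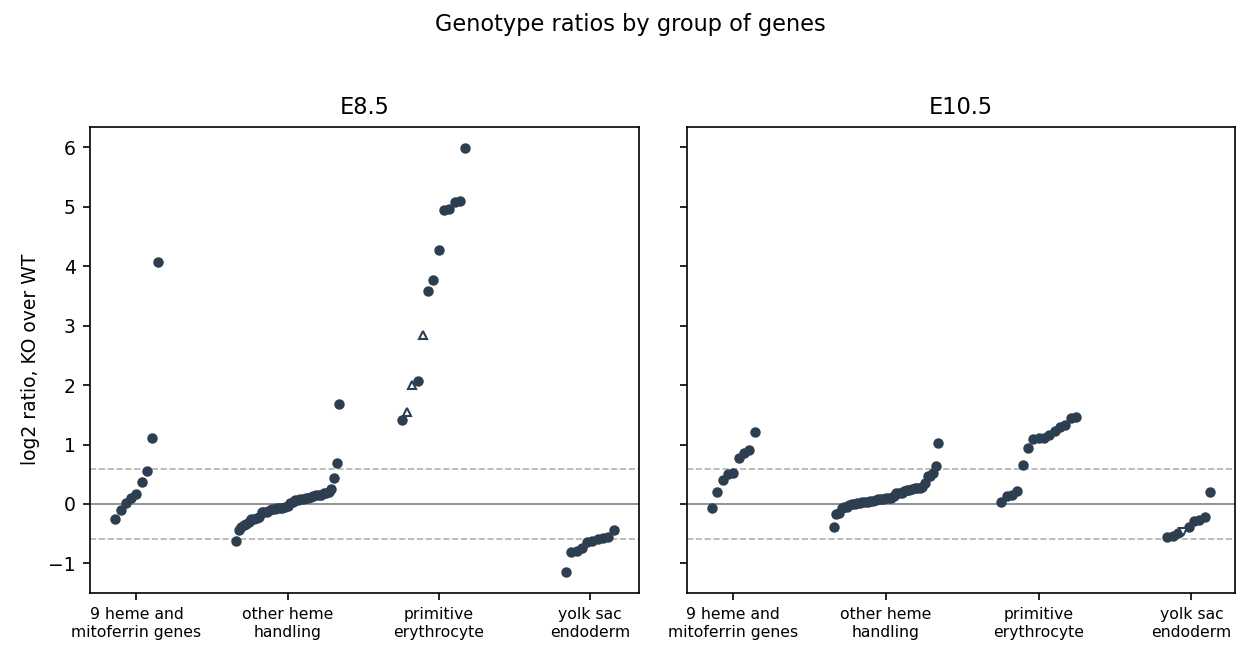
Log2 ratio of the array labelled *Dyrk2*-/- (KO) over WT (vertical axis) at E8.5 and E10.5, 1 point per tested gene sorted by ratio within each group, with triangles for bounds and dashed lines at 1.5-fold in each direction. At E8.5 all 13 erythrocyte markers lie above 1.5-fold while the 41 other heme handling genes center near 0 (median −0.03, turned to 0.03 by quantile normalization and −0.57 with spike-in scaling), and at E10.5 the 9 heme and mitoferrin genes have a median of 0.52.

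The remaining genes of heme and iron handling moved little beside these 9 under the main scaling. Of 41 other genes, all of them measured, 2 were higher and 1 was lower at E8.5 (median log2 ratio −0.03, turned to 0.03 by quantile normalization), and 2 were higher and 0 lower at E10.5 (median 0.10, turned to −0.035 without scaling). Under spike-in scaling these counts became 1 higher and 20 lower at E8.5 and 5 higher and 0 lower at E10.5. Without scaling, 1 was higher and 5 were lower at E8.5, whereas at E10.5 1 was higher. The 9 heme and mitoferrin genes thus stood above the other genes of the pathway on the same arrays by their medians, a difference that was not tested.

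In mitochondrial transport, *Slc25a28* and *Slc25a38* stayed near WT under the main scaling, whereas *Abcb10* was nominally above WT at E10.5. *Slc25a28*, the mitoferrin of other tissues, had log2 ratios of 0.09 and 0.04 (E8.5, then E10.5), and *Slc25a38*, the glycine carrier gene, had 0.12 and 0.18. *Abcb10*, a mitochondrial membrane protein gene of erythroid cells, had 0.19 and 0.47, short of 1.5-fold under the main scaling. It was called higher at E10.5 under spike-in scaling. The E8.5 ratios of these 3 genes turned below 0 under spike-in scaling and without scaling, as that of *Slc25a28* at E10.5 also did without scaling.

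Among 10 genes of iron uptake, storage and export, *Steap3*, the ferrireductase of the transferrin cycle, was higher at E8.5 (1.61-fold, a call lost under spike-in scaling, without scaling and under normexp) and was 1.44-fold above WT at E10.5. *Tfrc*, the transferrin receptor gene, read 2.57 (WT) and 2.72 (*Dyrk2*-/-) at E8.5 and 2.01 (WT) and 2.48 (*Dyrk2*-/-) at E10.5. Neither *Tfrc* ratio reached 1.5-fold under the main scaling, and that of E8.5 turned below 0 under spike-in scaling and without scaling. At E10.5, spike-in scaling called 2 of the 10 genes higher, *Tfrc* and *Steap3*, and 0 lower. Among 10 genes of iron-sulfur clusters and iron sensing, 0 were changed at either stage (6 were lower at E8.5 under spike-in scaling), with ratios between −0.26 and 0.10 at E8.5 and between −0.05 and 0.25 at E10.5, and *Isca1* was among those nearest to 0 at E8.5 (−0.03).

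Among 8 genes of heme export and breakdown, *Blvrb*, a biliverdin reductase gene, read −1.68 on the WT E8.5, −0.0022 on the *Dyrk2*-/- E8.5, 1.17 on the WT E10.5 and 2.20 on the *Dyrk2*-/- E10.5 array. It was 3.20-fold higher at E8.5 and 2.04-fold higher at E10.5, in the same array order as *Alas2*. *Flvcr2* was lower at E8.5 (log2 ratio −0.62, not called under normexp). *Hmox1*, the inducible heme oxygenase gene, had ratios of −0.05 and −0.15, and *Hmox2* had 0.11 and 0.08, where the E10.5 ratio of *Hmox1* turned above 0 under spike-in scaling, and the ratio of *Hmox2* turned below 0 at E8.5 under spike-in scaling and at both stages without scaling.

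The patterns nearest to *Alas2* and *Alas1* were of different kinds of genes. Distance was taken between log2 levels over the 4 arrays, each gene centred on its own mean, among 14577 genes well above background on all 4 arrays. Nearest to *Alas2* were *Slc4a1* (distance 0.82), *Hba-x* (0.83), *Hba-a1* (0.97), *Hba-a2* (0.997) and *Gata1* (1.39). Nearest to *Alas1* were *Hacd3*, *Mzt2*, *Npc2*, *Trp53* and *Mfsd12*, at distances from 0.01 to 0.02, a measure that is small for any gene that varies little. A pattern over 4 arrays is a description of these arrays.

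Over both stages, genotype was tested with limma, blocking on embryonic day, which leaves 1 residual degree of freedom. Of 18 probes of the 9 genes tested, 0 had a Benjamini-Hochberg adjusted p under 0.05, whereas 0.0124% of the 32289 probes tested were called higher and 0.00619% lower, and 10 of 18 had an unadjusted p under 0.05 (1592 of all probes), with 0 adjusted and 7 unadjusted (1635 of all probes) without limma's intensity trend. The brightest *Slc25a37* probe was nearest, with a log2 difference of 0.98 ± 0.12 (SE, higher on the array labelled *Dyrk2*-/- at 2 of 2 stages, limma adjusted p = 0.0663). *Alas2* had the largest difference of the 9 genes, 2.64 ± 0.49 (SE, 2 of 2 stages, limma adjusted p = 0.201), and the fit takes the gap between its ratios of 4.07 and 1.21 as residual. Under 7 of 8 other settings limma called between 1 and 7 of the probes, and each of those settings called *Slc25a37*, *Alas2* or both, while the calls over all probes rose from 6 to between 10 and 729.

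Promoter sequences of RefSeq (GRCm38.p6) were matched by symbol for 7 of the 9 genes, with 10 promoters in all. *Fech* and *Slc25a37* were not among them. The 250 bases before each start were searched on both strands for 6 motifs. Those of the GATA type were AGATAA (held by 9.99% of all 32851 promoters), AGATAG (by 7.71%), TGATAA (by 7.94%) and TGATAG (by 6.35%), the KLF1 type was CCACACCC (by 3.20%), and the core of NRF2 or MAF type sites was TGACNNNGC (by 10.2%). At least 1 of the 4 GATA type motifs lay in 3 of the 10 promoters and in 26.5% of all promoters. The KLF1 type and the NRF2 or MAF type motifs were in 0 of the 10 promoters. The 3 promoters with a match, of *Alas2*, *Cpox* and the start of *Uros* that lies further along the gene, are printed so that the letters can be seen beside those of *Alas1*, whose 2 promoters held none of the motifs. Each runs 5′ to 3′ on the strand of the gene and ends at the base before the start, and capitals mark the matches, which all read on the opposite strand. The match in *Alas2* begins 86 bases before the start, those in *Cpox*, which share a base, begin 91 and 86 bases before it, and those in *Uros* begin 205 and 68 bases before it. A match describes the letters only. No sequence of *Slc25a37* or *Fech* was searched, so they are not compared.

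The upstream sequences of these 4 starts, from RefSeq, follow.
*Alas2*: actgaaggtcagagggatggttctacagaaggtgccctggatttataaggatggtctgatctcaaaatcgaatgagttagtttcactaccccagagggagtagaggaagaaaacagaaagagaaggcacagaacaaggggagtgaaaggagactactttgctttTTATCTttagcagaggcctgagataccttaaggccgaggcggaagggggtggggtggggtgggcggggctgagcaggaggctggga
*Cpox*: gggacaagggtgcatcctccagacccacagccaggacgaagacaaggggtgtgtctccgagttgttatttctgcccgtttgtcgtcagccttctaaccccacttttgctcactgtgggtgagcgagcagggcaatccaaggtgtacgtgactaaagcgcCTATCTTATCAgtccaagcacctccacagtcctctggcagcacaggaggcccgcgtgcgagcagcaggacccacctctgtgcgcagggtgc
*Uros*: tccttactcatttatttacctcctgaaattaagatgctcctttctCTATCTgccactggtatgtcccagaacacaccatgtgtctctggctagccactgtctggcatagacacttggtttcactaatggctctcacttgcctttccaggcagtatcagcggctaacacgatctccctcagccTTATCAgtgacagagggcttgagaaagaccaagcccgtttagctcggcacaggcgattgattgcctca
*Alas1*: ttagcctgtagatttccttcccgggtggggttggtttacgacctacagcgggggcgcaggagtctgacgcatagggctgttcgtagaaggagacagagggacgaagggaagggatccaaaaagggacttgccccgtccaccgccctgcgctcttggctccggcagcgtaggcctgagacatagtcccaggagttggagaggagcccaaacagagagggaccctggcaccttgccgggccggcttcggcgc

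The windows lie at chrX:150547167-150547416 on the plus strand for *Alas2*, chr16:58669958-58670207 on the plus strand for *Cpox*, chr7:133702501-133702750 on the minus strand for *Uros* and chr9:106247955-106248204 on the minus strand for *Alas1*. Their share of G and C was 51.2%, 58.8%, 48.8% and 62.4%.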

How the data were processed

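The authors deposited the scanner output of 4 single-colour Agilent arrays, whose processed intensity Feature Extraction (10.7.1.1 per the file headers, 9.5.1.1 in the submitters' processing notes) had background-subtracted and detrended but not scaled between arrays. A deposited table of linear intensities, with a log2 median of 4.79 in every column and no stated scaling, served as an alternative. Log2 processed intensity was averaged over a probe's spots, leaving out outlier flags, and centred on the 75th percentile of its array. A pair of arrays was compared at probes well above background on either. RefSeq accessions gave the symbols of 16 of the 19 probes, and the array annotation (mm9) gave probe coordinates. Genotype was fitted with limma 3.58.1 (lmFit and eBayes with trend, Benjamini-Hochberg adjustment) at probes well above background on 2 or more arrays, in R 4.3.3 (reading files through the package data.table, version 1.17.8). Matplotlib 3.10.9, pandas 2.3.3 and numpy 2.4.6 ran under Python 3.11.15, and the calls were tested on simulated data. Alternatives were quantile normalization, spike-in scaling, no scaling, normexp with an offset of 50, the deposited table, other filters on dim probes, the mean of all probes, a 2-fold threshold and limma without trend. Genes named are the 9 genes, *Dyrk2*, in each list up to 6 genes changed 1.5-fold per stage and up to 3 nearest to no change, and the 5 nearest patterns of *Alas2* and of *Alas1*. *Xist*, Y-linked genes and a few list genes named for their role were added after their values were seen. The 9 genes and the lists were chosen with earlier results of these data known. Protein sequences were not used here. Some list genes are not reported here.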

Additional observations from a re-analysis of the deposited data

Results flagged for a closer look

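Under the main scaling *Uros* was the 1 gene of the 9 whose brightest probe lay on opposite sides of WT at the 2 stages by more than the spread of spots, and under spike-in scaling *Alad*, *Urod*, *Cpox* and *Fech* did so too, as did *Alad* and *Urod* without scaling. The log2 ratio of *Uros* for the array labelled *Dyrk2*-/- over WT was −0.26 for E8.5 and 0.50 for E10.5, with 1 array per group. The difference between the stages was not tested. Of the other *Uros* probes, 1 had the same pair of directions (−0.29 and 0.47) and 1 was above 0 at both stages (0.07 and 0.55).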

How the results depend on the processing

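Of 108 alternative values of the genotype ratios of single genes, 97 had the sign of the main value. The deposited table is close to quantile normalization (median absolute log2 difference 0.0064), and the mean over all probes leaves genes with 1 probe as they were. *Alas2*, with 1 probe, stayed above 1.5-fold under the other 5 alternatives at both stages, between 2.54 and 3.95 (log2) at E8.5, with the lowest value under normexp, and between 1.07 and 1.37 at E10.5. *Cpox*, *Fech* and *Slc25a37* also stayed above 1.5-fold at E10.5, and *Slc25a37* under 5 of 6 at E8.5. At E8.5 the count of changed genes went from 2 to 4 (3 higher, 1 lower) with the mean over all probes, which takes in a dim *Alad* probe, and the median ratio from 0.18 to −0.37 with spike-in scaling and −0.081 without scaling. At E10.5 the count went from 4 to 1 at 2-fold, and the median from 0.52 to 0.68 with spike-in scaling and 0.39 without scaling. Between the stages, the WT count went from 3 to 5 without scaling and the *Dyrk2*-/- count from 6 to 3 at 2-fold and 9 with spike-in scaling. Limma's count of called probes of these genes went from 0 (of 6 calls over all probes) to 2 (of 29) with quantile normalization, 1 (of 37) with spike-in scaling, 5 (of 729) without scaling, 1 (of 25) with normexp, 2 (of 40) with the deposited table, 1 (of 10) with probes above background on all 4 arrays and 7 (of 564) with no filter. Why limma's count moved was not tested. The WT E8.5 intensity of *Alas2*, 27.4, is near the floor of that array.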
